A study of Mus musculus with 16 samples.

Results

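The cell cycle and replication genes described here are 40 mouse genes listed by symbol, chosen because their products copy DNA, assemble the spindle or drive the change from one cell cycle phase to the next. Of the 40, 37 had a named probe set on the array, 1 each, among 19505 genes with a symbol. No value is given for Ccnb1, Foxm1 and Mcm7, whose probe sets are not named in the annotation used. Values are log2 signals, so that a difference of 1 is a doubling of signal, and levels are compared only within a gene.

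RNA came from mouse intervertebral discs, whose gel-like centre is the nucleus pulposus (NP) and whose fibrous ring is the annulus fibrosus (AF). The cKO mice (AcanCreERT2 Sox9fl/fl) carry loxP-flanked Sox9 alleles and a tamoxifen-activated Cre under the aggrecan gene Acan, so that recombination is expected in aggrecan-expressing cells only, and they received tamoxifen on 2 consecutive days. The CTR mice (Sox9fl/fl) carry the same floxed alleles with no Cre named, and the labels do not say that they were injected, so drug and genotype cannot be told apart. All 8 mice, 4 of each genotype, were females of 3 to 4 months, and discs were taken on day 5 after the first injection. Lumbar and tail discs of each animal were pooled by tissue, giving 4 arrays each of NP cKO, NP CTR, AF cKO and AF CTR. Nothing in the labels says how the controls relate to the cKO litters, and p-values measure the spread between these animals.

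Sox9, the deleted gene, had signals of 9.69, 9.55, 10.12 and 9.65 in NP cKO arrays 1 to 4, against 16.19, 16.14, 16.79 and 15.95 in NP CTR. In the AF it had 12.10, 11.43, 12.99 and 12.44 in cKO and 17.25, 17.45, 16.59 and 16.39 in CTR. The mean of 9 NP marker genes lay between 11.79 and 12.17 in NP arrays and between 10.75 and 11.54 in AF arrays. Between the tissues of CTR mice Krt8, Krt18, Krt19 and Cd24a were called higher in the NP, Foxa2 was called lower, by 0.91 (SE 0.21, adjusted p = 0.00402 in limma), Noto was lower without overlap, by 0.66 (adjusted p = 0.0651), and Foxa1, Shh and Car3 overlapped, so the NP label is borne out by some of its markers and not by others. The mean of 11 AF and tendon genes lay between 7.66 and 10.55 in NP arrays, highest in NP cKO 4, and between 12.75 and 14.59 in AF arrays. The array medians lay between 6.66 and 6.89, and the negative controls of each array had a median between 6.14 and 6.59.

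In an adult disc most cells rest outside the cycle. A cell that enters it builds E-type cyclins and E2F factors, loads the MCM helicase on replication origins, raises its supply of deoxynucleotides and, later, makes the cyclins, kinases and motor proteins of mitosis. The genes of each phase tend to be transcribed together: S-phase genes through E2F sites, and mitotic genes through CCAAT boxes bound by NF-Y and CHR elements bound by the DREAM and MuvB complexes. Bone marrow, which lies in the vertebrae beside the disc, is rich in dividing blood progenitors. Mpo and Elane, which encode myeloperoxidase and neutrophil elastase, are made by dividing granulocyte progenitors of the marrow and mark such cells in a dissected sample.

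Promoters are shown for 6 members on which the results below turn, as the 250 bases before the transcription start, 5′ to 3′ on the gene's strand, from RefSeq on build GRCm38.p6. Capitals mark a CCAAT box (CCAAT), a CHR (TTTGAA or TTCGAA) or an E2F site (TTTCCCGC or TTTGGCGC), on either strand. Mki67, Ube2c and Plk1 are mitotic members with large differences between cKO and CTR in the AF. Top2a is a mitotic member that differed between the tissues, and Mcm5 and Mcm6 are replication genes.
Mki67 (chr7:135716380-135716629, minus strand): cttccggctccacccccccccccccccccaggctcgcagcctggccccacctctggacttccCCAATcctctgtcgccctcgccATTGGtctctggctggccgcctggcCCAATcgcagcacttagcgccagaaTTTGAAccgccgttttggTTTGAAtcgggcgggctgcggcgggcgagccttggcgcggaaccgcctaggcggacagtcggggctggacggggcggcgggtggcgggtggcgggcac
Top2a (chr11:99024190-99024439, minus strand): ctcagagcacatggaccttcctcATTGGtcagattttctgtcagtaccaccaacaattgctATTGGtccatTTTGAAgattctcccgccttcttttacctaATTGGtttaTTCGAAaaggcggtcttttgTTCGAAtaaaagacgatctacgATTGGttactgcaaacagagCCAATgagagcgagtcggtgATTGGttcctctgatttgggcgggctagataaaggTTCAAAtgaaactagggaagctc
Ube2c (chr2:164769679-164769928, plus strand): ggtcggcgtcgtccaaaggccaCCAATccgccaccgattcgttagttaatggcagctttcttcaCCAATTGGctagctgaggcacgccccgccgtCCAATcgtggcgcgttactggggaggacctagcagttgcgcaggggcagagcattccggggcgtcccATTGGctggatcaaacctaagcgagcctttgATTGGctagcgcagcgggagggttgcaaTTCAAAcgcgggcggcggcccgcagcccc
Plk1 (chr7:122159185-122159434, plus strand): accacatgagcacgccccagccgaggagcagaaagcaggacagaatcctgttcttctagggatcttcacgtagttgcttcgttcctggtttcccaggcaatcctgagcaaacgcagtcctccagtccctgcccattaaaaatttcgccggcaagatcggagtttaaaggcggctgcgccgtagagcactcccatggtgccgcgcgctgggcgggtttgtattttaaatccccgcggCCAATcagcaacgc
Mcm5 (chr8:75109259-75109508, plus strand): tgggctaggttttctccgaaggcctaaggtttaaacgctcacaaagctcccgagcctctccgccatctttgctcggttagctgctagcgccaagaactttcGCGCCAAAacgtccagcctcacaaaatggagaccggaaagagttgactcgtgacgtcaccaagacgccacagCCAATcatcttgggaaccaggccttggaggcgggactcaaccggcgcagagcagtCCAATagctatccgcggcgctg
Mcm6 (chr1:128359706-128359955, minus strand): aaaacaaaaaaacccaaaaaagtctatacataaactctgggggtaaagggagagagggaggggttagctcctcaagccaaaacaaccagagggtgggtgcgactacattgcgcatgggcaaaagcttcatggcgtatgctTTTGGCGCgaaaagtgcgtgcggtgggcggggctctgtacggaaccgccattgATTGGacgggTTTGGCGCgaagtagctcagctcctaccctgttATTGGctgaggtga

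Of the 40 members, 33 were matched by symbol in the promoter table, with 35 windows in all, and the letters were counted in each. A CCAAT box lay in 19 of 21 windows of mitotic members (90.5%), in 9 of 14 windows of replication and G1/S members (64.3%) and in 33.8% of all 32851 windows of that length. A CHR lay in 9 of 21 mitotic windows (42.9%), 2 of 14 replication and G1/S windows (14.3%) and 17.1% of all windows. An E2F site lay in 0 of 21 mitotic windows, in 4 of 14 replication and G1/S windows (28.6%) and in 1.3% of all. The Top2a window holds 6 CCAAT boxes and 4 CHRs, and the Ube2c window 6 CCAAT boxes, of which 1 pair overlaps on opposite strands. Mcm6 holds 2 E2F sites and Mcm5 holds 1, beside 2 CCAAT boxes each. A match of letters is a description and not a measured binding site.

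Many members were dim. Signal above the highest negative control median of 6.59 was reached by the group mean of 16 of 37 members in NP cKO, 13 in NP CTR, 26 in AF cKO and 19 in AF CTR, where 52.6%, 52.1%, 52.9% and 54% of all probe sets reached it. Pcna, the sliding clamp of the replication fork, and Rrm1, the large subunit of ribonucleotide reductase, were above the highest 90th percentile of the negative controls, 9.40, in every group, and Mki67 was above it in AF cKO only, while 18.2% to 20% of all probe sets were. A value near the negative controls understates a difference, and many of the values below are of that kind. In tissue RNA, more cells of a type and more RNA per cell cannot be told apart.

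The members were highest in the AF of cKO mice. The mean signal over the 37 members was 6.50, 7.06, 6.27 and 6.43 in NP cKO arrays 1 to 4, 6.34, 6.59, 6.54 and 6.40 in NP CTR, 7.35, 7.83, 8.32 and 6.77 in AF cKO, and 7.38, 6.70, 6.80 and 6.65 in AF CTR. AF cKO 2 and 3 stood above all other arrays, AF cKO 4 lay among the AF controls, and AF CTR 1 lay among the cKO arrays. Of the 37 members, 33 had their highest group mean in AF cKO. The exceptions were Birc5 and Mybl2, highest in AF CTR, Cdc6, highest in NP CTR, and Rrm1, highest in NP cKO. The spread was largest there too: the median SD of the members was 0.66 in AF cKO, against 0.46 in AF CTR, 0.42 in NP cKO and 0.30 in NP CTR.

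**Figure D1:**
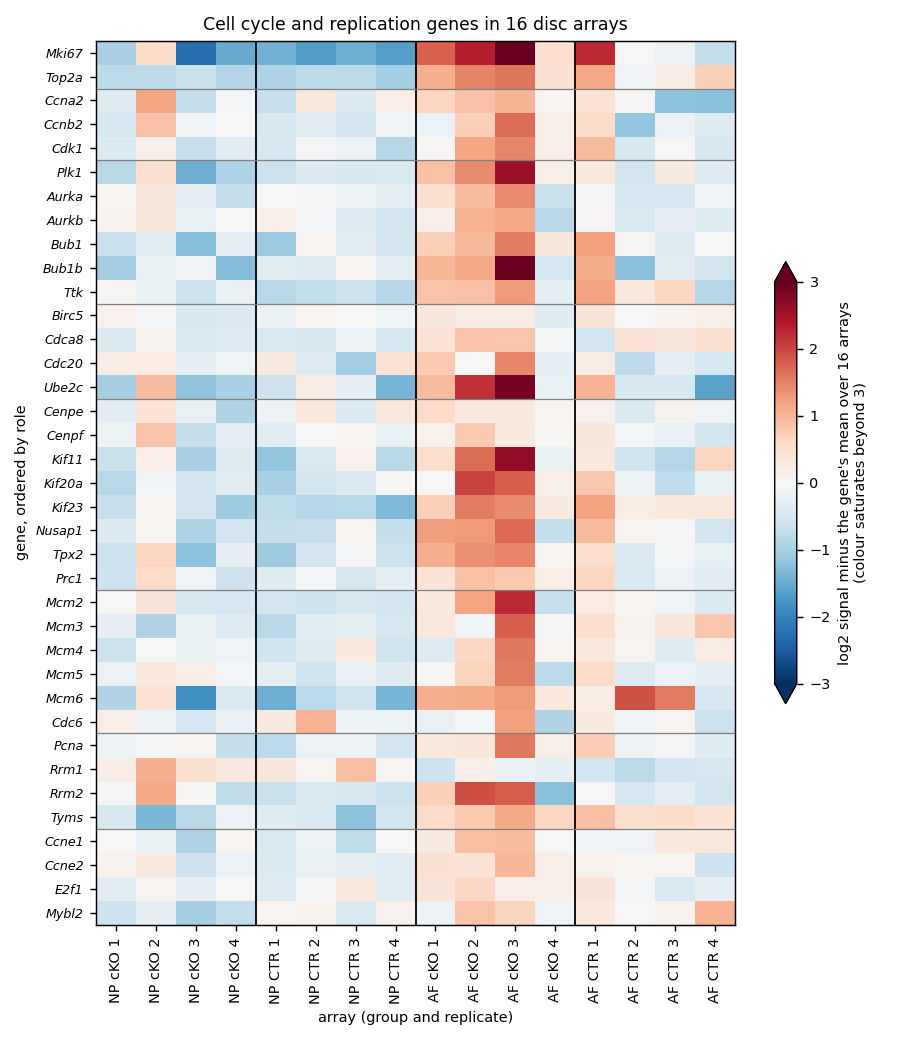
Signal of the 37 measured members (rows, ordered by role) in the 16 arrays (columns), as the difference from each gene's mean over all arrays on the log2 scale. AF cKO 2 and 3 are the reddest columns, AF cKO 4 is pale, and NP cKO 2 is redder than the other NP columns.

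In the AF, the comparison of cKO with CTR asks whether loss of Sox9 changes the expression of cell cycle genes in the outer disc within days. No member passed an adjusted p of 0.05 in limma over all 22206 probe sets, where 0.0991% of probe sets did. Of the 37 members, 35 were higher in cKO (46.4% of all probe sets were), and 16 had an unadjusted p under 0.05, all of them higher (4.94% of all probe sets). The median difference was 0.64 over the members and -0.03 over all probe sets. These counts describe the members and are not a test of the list.

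Mki67, which encodes the Ki-67 protein that coats mitotic chromosomes and is the usual mark of cycling cells, had signals of 10.77, 11.33, 13.38 and 9.5 in AF cKO arrays 1 to 4, and 11.23, 9.01, 8.85 and 8.28 in AF CTR. All 4 cKO arrays lay above 3 of the CTR arrays, and AF CTR 1 lay among the cKO arrays, so the groups overlap. The cKO mean was 11.25 ± 1.62 and the CTR mean 9.34 ± 1.30 (SD, n = 4), a difference of 1.90 (SE 0.70, adjusted p = 0.345 in limma). Top2a, the topoisomerase that untangles sister chromatids, had 7.57, 7.96, 8.07 and 6.94 in AF cKO and 7.64, 6.38, 6.71 and 7.20 in AF CTR. Its difference of 0.66 (SE 0.26, adjusted p = 0.386) followed the same pattern, with AF cKO 4 low and AF CTR 1 high.

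The mitotic cyclins and their kinase were higher in cKO by 0.72 to 1.15. Ccna2, the cyclin of S phase and mitotic entry, differed by 1.15 (SE 0.41, adjusted p = 0.339), with 6.74, 6.98, 7.14 and 6.16 in cKO and 6.52, 6.15, 4.88 and 4.86 in CTR. Its values in AF CTR 3 and 4 lay below the lowest negative control median, 6.14. Ccnb2, a B-type cyclin, differed by 0.89 (SE 0.38). Cdk1, the kinase that both cyclins activate, differed by 0.72 (SE 0.34), and its signals, 4.08 to 5.50 in AF cKO and 3.58 to 5.00 in AF CTR, were under the negative control medians.

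Among the mitotic and checkpoint kinases all 6 were higher. Plk1, which drives centrosome maturation and mitotic exit, had 8.55, 9.10, 10.26 and 7.88 in AF cKO and 7.99, 7.10, 7.94 and 7.29 in AF CTR. Only AF cKO 4 fell within the range of the CTR arrays, and the difference of 1.37 (SE 0.42, 95% interval 0.49 to 2.25) had the smallest p of the members (adjusted p = 0.258 in limma). Bub1b, the BubR1 checkpoint kinase, differed by 1.39 (SE 0.54) and Aurka, the centrosomal Aurora kinase, by 0.83 (SE 0.33). Bub1b reached 8.72 in AF cKO 3, against 6.76, 6.92 and 5.24 in the other cKO arrays, 6.88 in AF CTR 1 and at most 5.45 in the other CTR arrays. Aurkb, Bub1 and Ttk, the other kinases, were higher by 0.64, 0.67 and 0.35.

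Of the chromosomal passenger and anaphase-promoting complex genes, Ube2c stood out. Ube2c, the ubiquitin-conjugating enzyme that works with the anaphase-promoting complex, had 7.02, 8.27, 8.93 and 5.88 in AF cKO and 7.11, 5.58, 5.59 and 4.46 in AF CTR. The difference of 1.84 (SE 0.62, adjusted p = 0.305) was 3.58-fold, with 3 cKO arrays near or above the highest CTR array. AF cKO 4 and AF CTR 2, 3 and 4 lay below the lowest negative control median, 6.14, so this fold is taken against background. Cdc20, the activator of the anaphase-promoting complex, was higher by 0.84 (SE 0.36), and Cdca8, the passenger protein borealin, by 0.35 (SE 0.25). Birc5, survivin, did not share this: its means were 6.36 ± 0.31 in cKO and 6.40 ± 0.17 in CTR, a difference of -0.05 (SE 0.20, 95% interval -0.47 to 0.37).

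All 8 kinesin, kinetochore and spindle genes were higher, 4 of them at an unadjusted p under 0.05. Kif11, the kinesin that pushes spindle poles apart, had 7.58, 8.73, 9.72 and 6.84 in AF cKO and 7.36, 6.47, 6.21 and 7.70 in AF CTR, a difference of 1.28 (SE 0.49). Kif20a, a kinesin of the central spindle, differed by 1.09 (SE 0.41) and Tpx2, which activates Aurora A on the spindle, by 1.05 (SE 0.36, adjusted p = 0.323). Prc1, which bundles midzone microtubules, differed by 0.64 (SE 0.28). Kif23, Nusap1, Cenpe and Cenpf were higher by 0.48, 0.78, 0.39 and 0.42.

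Replication genes were higher by less and none of the 6 licensing genes had an unadjusted p under 0.05. Mcm2, a subunit of the replicative helicase, had 7.54, 8.43, 9.49 and 6.56 in AF cKO and 7.50, 7.31, 7.10 and 6.84 in AF CTR. AF cKO 4 was the lowest of these 8 arrays and AF cKO 3 the highest, and the difference was 0.82 (SE 0.41, adjusted p = 0.484). Mcm5, another subunit, had 6.08, 6.70, 7.60 and 5.23 in cKO and 6.61, 5.66, 5.85 and 5.74 in CTR, a difference of 0.44 (SE 0.35). Mcm3, Mcm4 and Mcm6 differed by 0.04, 0.41 and 0.16, and Cdc6, which helps to load the helicase, by 0.12.

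Rrm2, the ribonucleotide reductase subunit whose level rises in S phase, had 8.44, 9.67, 9.56 and 6.47 in AF cKO and 7.72, 7.21, 7.46 and 7.19 in AF CTR. Its cKO arrays were either above all CTR arrays or, in AF cKO 4, below all of them, and the difference was 1.14 (SE 0.50, adjusted p = 0.441). Pcna had 13.42, 13.47, 14.71 and 13.31 in cKO and 13.88, 12.98, 13.10 and 12.78 in CTR, a difference of 0.55 (SE 0.30). Rrm1 and Tyms, the thymidylate synthase, differed by 0.38 and 0.21.

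Of the G1/S genes, Ccne2, an E-type cyclin, was the only member whose groups did not overlap, with 7.54, 7.50, 8.09 and 7.26 in AF cKO and 7.22, 7.14, 7.14 and 6.48 in AF CTR. Its difference was 0.60 (SE 0.23, adjusted p = 0.375), and groups that do not overlap, with cKO above, were found in 1.79% of all probe sets. E2f1, the S-phase transcription factor, differed by 0.46 (SE 0.21) at signals of 4.43 to 5.52, under the negative controls. Ccne1, the other E-type cyclin, differed by 0.42 (SE 0.26), and Mybl2, a MuvB partner, by -0.05 (SE 0.27).

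**Figure D2:**
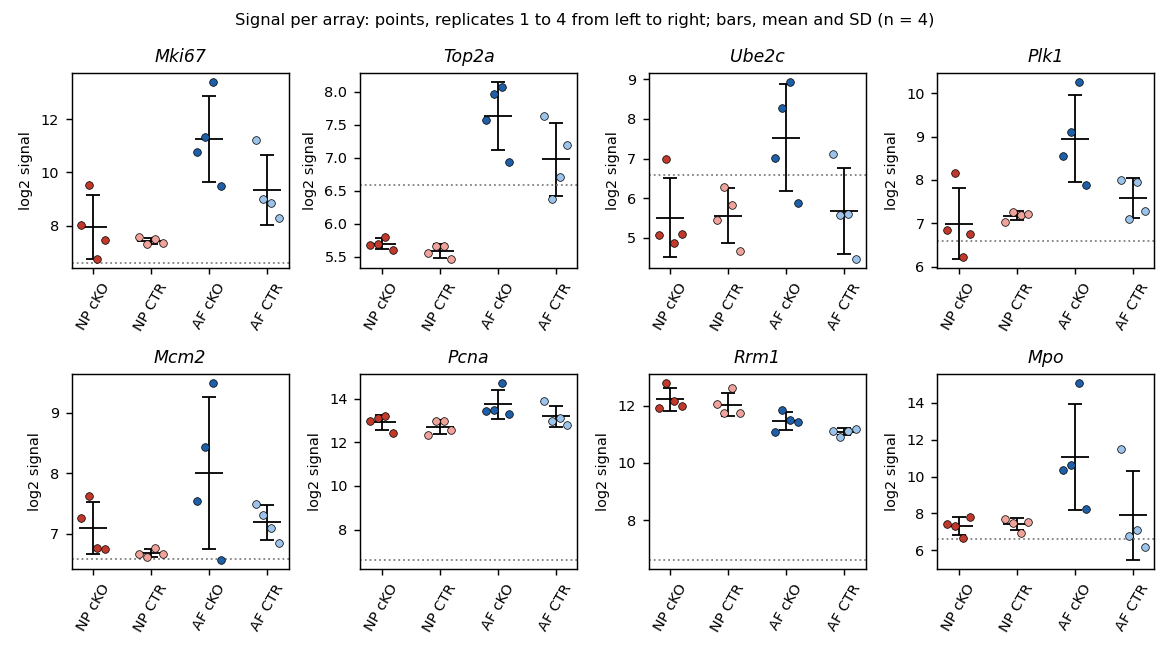
Log2 signal of 7 members and of Mpo in each array (points, replicates 1 to 4 left to right), with the mean and SD of the 4 arrays of a group, and the highest negative control median as a dotted line. In AF cKO the point of replicate 3 is the highest for Mki67, Top2a, Ube2c, Plk1, Mcm2, Pcna and Mpo, and that of replicate 4 the lowest of its group for Mki67, Top2a, Ube2c, Plk1, Mcm2 and Pcna.

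The marrow genes moved with these values. Mpo had 10.34, 10.60, 15.07 and 8.23 in AF cKO arrays 1 to 4 and 11.50, 6.78, 7.09 and 6.17 in AF CTR, and Elane had 8.74, 9.20, 13.66 and 6.54 in AF cKO and 10.09, 5.87, 5.60 and 5.96 in AF CTR. The arrays highest for the members, AF cKO 3, AF cKO 2, AF CTR 1 and AF cKO 1, were also the 4 highest for Mpo. All 5 granulocyte progenitor genes were higher in AF cKO, 4 at an unadjusted p under 0.05 and none at an adjusted one, and their mean lay between 6.09 and 11.09 in AF cKO and between 5.34 and 8.0 in AF CTR. Other lists were high in the same arrays. The mean of the 12 later neutrophil granule genes was 11.75, 11.62, 12.38 and 9.32 in AF cKO and 11.36, 8.10, 6.20 and 7.47 in AF CTR, with all 12 higher in cKO by a median of 3.26, 10 of them at an unadjusted p under 0.05 and none at an adjusted one. The mean of 9 erythroid genes was 8.21, 7.84, 9.08 and 7.32 in AF cKO and 7.81, 6.80, 6.97 and 7.25 in AF CTR. The 8 macrophage genes had 8.04, 7.76, 8.29 and 7.14 in AF cKO and 8.26, 6.88, 6.74 and 6.84 in AF CTR, and the 7 osteoclast genes reached 9.36 in AF cKO 3 and 8.12 in AF CTR 1. Lists of cells other than blood cells shared this in part. The 9 endothelial genes had 7.65, 7.39, 7.87 and 6.85 in AF cKO and 7.81, 6.88, 6.82 and 6.48 in AF CTR, with the same 4 arrays highest. The 9 osteoblast genes were highest in AF cKO 3 and AF CTR 1, at 13.13 and 11.95. The 11 B lineage genes stayed between 5.44 and 5.91 in all 8 AF arrays. The 12 skeletal muscle genes were highest in AF cKO 2 and 4, at 10.32 and 9.64, which is not the order of the members. All 12 were higher in cKO, 9 at an unadjusted p under 0.05 (4.94% of all probe sets). The 11 growth plate cartilage genes had 9.84, 9.02, 9.97 and 8.54 in AF cKO and 13.21, 10.90, 8.41 and 9.81 in AF CTR. Of these, 8 were lower in cKO and 3 higher. Ucma was called lower (adjusted p = 0.0269 in limma), where 0.0991% of all probe sets were called. The part of marrow or other cells in the differences was not tested, since no array holds marrow or disc cells alone.

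Across the 8 AF arrays all 37 members correlated positively with Mpo, as did 42.6% of all probe sets. The median Pearson r was 0.825 over the members and -0.103 over all probe sets, and 27 of 37 had an r over 0.7, as did 6.72% of all probe sets. Mki67 had r = 0.993 (exact permutation p = 0.000124, two-sided) and Spearman's rho = 0.952 (exact p = 0.00114). Pcna had r = 0.974 (exact p = 2.48e-05, the smallest that 8 arrays can give) and rho = 1.0 (exact p = 4.96e-05). Bub1b, Tyms, Bub1 and Ube2c followed, with r = 0.965, 0.950, 0.945 and 0.934. Among all 88824 relations of probe sets with Mpo or Elane in either tissue no member had an adjusted p under 0.05, the lowest being 0.169 for r and 0.294 for rho. Without AF cKO 3 and AF CTR 4, the 2 arrays farthest from the median Mpo, 21 members had an r over 0.7 (7.18% of all probe sets). The median of the members was then 0.737, and their r ran from -0.635 to 0.979, the value of Mki67. With Elane the median r was 0.837, and 0.781 without AF cKO 3 and AF CTR 1. In the NP, Mpo spanned only 6.68 to 7.83 and Elane 5.85 to 7.25, near the negative control medians of 6.14 to 6.59. In the AF, Mpo spanned 6.17 to 15.07. An r in the NP therefore rests on a narrow range near background, and it cannot be set against that of the AF. Across the 8 NP arrays 17 of 37 members correlated positively with Mpo (46.7% of all probe sets). The median r there was -0.032 (-0.0388 over all probe sets), and 1 member had an r over 0.7 (3.35%). Pcna had r = -0.799 and rho = -0.952 in the NP (exact permutation p = 0.0174 and 0.00114). With Elane, 32 members were positive in the NP (48.6% of all probe sets), with a median r of 0.418. The permutations took no account of genotype, so r and its p also hold the difference between cKO and CTR arrays. A genotype alone has 4 arrays, too few for a correlation within it.

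Some members did not follow Mpo in the AF. Mcm6, a helicase subunit, had 9.18, 9.21, 9.36 and 8.41 in AF cKO and 8.30, 9.99, 9.64 and 7.59 in AF CTR, highest in 2 control arrays with little Mpo, and its r was 0.132 (exact permutation p = 0.761; rho = 0.00, exact p = 1.0). Without the 2 farthest arrays it was -0.635. Cdca8 and Mybl2 had r = 0.150 and 0.170, and Rrm1 and Birc5 had 0.456 and 0.463.

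**Figure D3:**
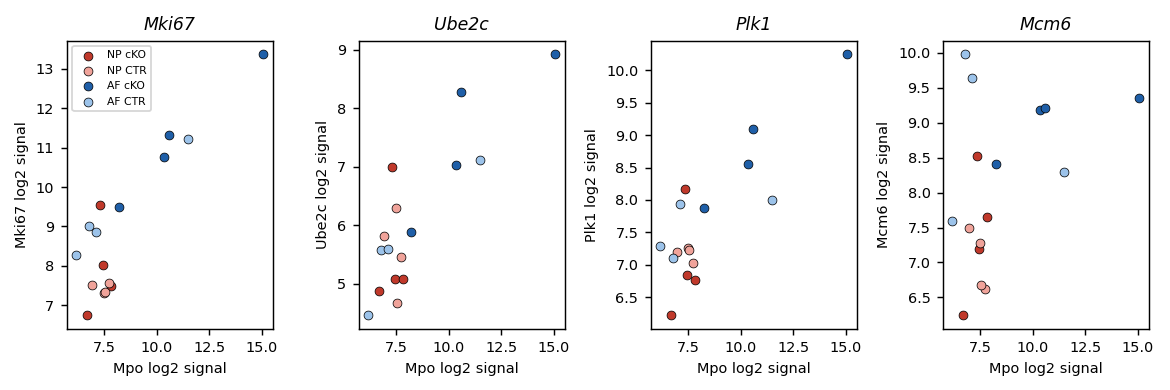
Log2 signal of Mki67, Ube2c, Plk1 and Mcm6 against that of Mpo in the 16 arrays, coloured by group. In AF arrays the first 3 genes are higher where Mpo is higher, while the Mcm6 points of AF CTR 2 and 3 lie highest at low Mpo.

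When the mean of Mpo and Elane entered the fit as a covariate, the median AF difference of the members was 0.19 in place of 0.64, 25 of 37 were higher and none had an unadjusted p under 0.05. Mki67 then differed by 0.25 (SE 0.41), Ube2c by 0.60 (SE 0.50) and Plk1 by 0.58 (SE 0.37). With the mean of the erythroid genes as the covariate the median was 0.06, and 21 of 37 were higher. Without AF cKO 3, the array with most Mpo, the median was 0.44, 33 were higher, and the count at an unadjusted p under 0.05 was 5 in place of 16. That count was 8 without AF cKO 2 or without AF CTR 2, 9 without AF CTR 4, 10 without AF CTR 3 and 26 without AF cKO 4, and without AF cKO 4 both Aurka and Rrm2 passed the adjusted threshold. It was 21 without AF CTR 1, the control array with most Mpo, where the median was 0.78 and 35 members were higher. Without both AF cKO 3 and AF CTR 1, a setting chosen after seeing the data, the median was 0.58 and 32 of 37 were higher.

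In the NP, the same comparison gave no common direction of any size. No member passed the adjusted threshold, where 0.122% of probe sets did, and Mybl2 alone had an unadjusted p under 0.05 (2.81% of all probe sets were lower at that p). The median difference was 0.09 over the members and 0.00 over all probe sets, with 26 members higher (50.0% of all probe sets) and 11 lower.

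Mybl2 had 5.32, 5.71, 4.96 and 5.22 in NP cKO and 6.04, 6.06, 5.49 and 6.08 in NP CTR, all under the negative control medians. NP CTR 3 overlapped the cKO arrays, and the difference was -0.62 (SE 0.27, adjusted p = 1.0 in limma). Mcm5 was the only member whose groups did not overlap, with 5.86, 6.36, 6.23 and 5.98 in NP cKO and 5.75, 5.45, 5.85 and 5.64 in NP CTR. Its difference was 0.44 (SE 0.35, adjusted p = 1.0), and cKO lay wholly above CTR in 1.11% of all probe sets. The licensing genes Mcm2 and Mcm6 were higher by 0.42 and 0.38, Mcm3 and Mcm4 by 0.05 and 0.08, and Cdc6 lower by 0.42.

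Mki67 had 8.03, 9.55, 6.74 and 7.48 in NP cKO and 7.56, 7.32, 7.52 and 7.34 in NP CTR. The 4 controls lay within 0.12 (SD) of 7.44 while the cKO arrays spread by 1.19 about 7.95, both above and below the controls, and the difference was 0.51 (SE 0.70, 95% interval -0.94 to 1.97). Rrm2 had 7.69, 8.86, 7.75 and 6.98 in NP cKO and 7.05, 7.27, 7.25 and 7.07 in NP CTR, a difference of 0.66 (SE 0.50). Plk1 had 6.84, 8.16, 6.22 and 6.76 in NP cKO and 7.02, 7.26, 7.19 and 7.23 in NP CTR, where 3 cKO arrays lay below the controls and NP cKO 2 above them, for a difference of -0.18 (SE 0.42). Of the other members, Ccnb2, Ttk and Kif23 were higher by 0.44, 0.51 and 0.38. Top2a, Cdk1, Pcna and Ccne1 were higher by 0.11, 0.07, 0.22 and 0.09, and Birc5 and E2f1 lower by 0.15 and 0.02, each within its SE.

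One array carried much of what was higher in the NP. NP cKO 2 was the highest of the 8 NP arrays for 22 of 37 members, and for 14.0% of all probe sets. It lay above the median of the other 7 NP arrays for 33 of 37 members, by a median of 0.53, where the median over all probe sets was -0.05. Ube2c was 6.99 there and 5.08, 4.87 and 5.08 in the other NP cKO arrays, against 5.46, 6.29, 5.82 and 4.67 in NP CTR. Ccna2 was 7.29 there and at most 6.05 in the other cKO arrays and 6.43 in NP CTR. Mpo was 7.32 in it, within the range of 6.68 to 7.83 of the NP arrays. Elane was 7.09, the highest after the 7.25 of NP cKO 1, where the others had 5.85 to 6.82. The mean of the 5 granulocyte progenitor genes was 5.997, below the 6.08 of NP CTR 2 and above the 5.75 to 5.98 of the others. The mean of 12 later neutrophil genes was 7.66 in NP cKO 2, where the other NP arrays had 5.34 to 7.49, and that of 7 osteoclast genes was 5.78, where the others had 5.13 to 5.45. Its mean of the 9 erythroid genes, 6.97, and of the 11 AF and tendon genes, 7.90, lay within the ranges of the other NP arrays. The part of other cells in the values of NP cKO 2 was not tested. Without NP cKO 2 the median difference of the members was -0.02, with 16 higher and 21 lower.

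**Figure D4:**
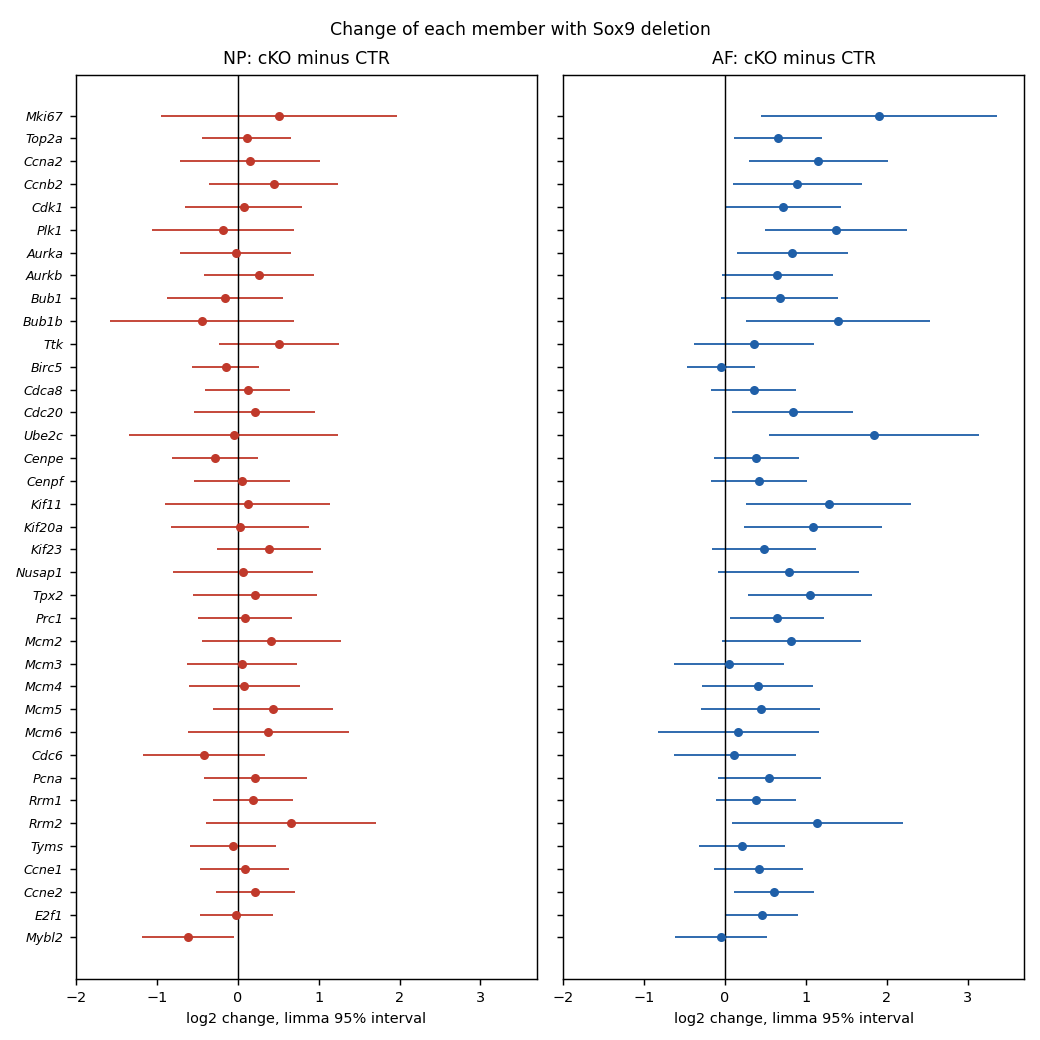
Difference between cKO and CTR of each of the 37 members in the NP (left) and the AF (right), as the log2 difference with its 95% interval from limma. In the AF 35 of 37 points lie right of 0, in the NP 26 do, and no point passes the adjusted threshold.

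The difference between the AF and NP responses was itself tested. No member passed, and no probe set did (0.00% of 22206), while 1496 probe sets had an unadjusted p under 0.05. The cKO minus CTR change, taken with its sign, was higher in the AF for 34 of 37 members (48.4% of all probe sets), with a median of 0.48 (-0.02 over all probe sets). Plk1, Bub1b and Ube2c had an unadjusted p under 0.05, with differences of 1.55 (SE 0.59), 1.83 (SE 0.77) and 1.90 (SE 0.87), each with an adjusted p of 0.732 in limma (3.17% of all probe sets were higher at that unadjusted p). Cenpe, Ccna2 and Top2a followed in their groups, at 0.67, 0.999 and 0.55, and Mki67 had 1.39 (SE 0.98). For the replication genes the differences were smaller, 0.40 for Mcm2, 0.00 for Mcm5, 0.33 for Pcna and 0.48 for Rrm2. The count of 3 was 8 without NP cKO 2, 11 without AF CTR 1, 12 without AF cKO 4, 2 without NP cKO 3, NP CTR 2, AF cKO 2 or AF CTR 3, and 1 without NP cKO 1, NP cKO 4, AF cKO 3 or AF CTR 2. With the Mpo and Elane mean as a covariate the median was 0.06 with 20 members higher, and without AF cKO 3 it was 0.30.

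Between the tissues, some members differed beyond the error. In cKO mice 20 of 37 members passed the adjusted threshold for NP minus AF, 19 lower in the NP and 1 higher, where 25.9% of all probe sets passed (12.6% lower and 13.3% higher). In CTR mice 7 of 37 passed, 6 lower and 1 higher, where 20.1% of all probe sets passed (10.1% lower and 9.96% higher). The share in CTR mice is close to that background. The median difference was -0.81 in cKO and -0.39 in CTR mice, against 0.07 and 0.04 over all probe sets. Of the members, 36 were lower in cKO and 29 in CTR mice, where 54.4% and 52.8% of all probe sets were higher. When each array was centred on its median, the median over all probe sets became 0.13 and 0.16, and of all calls 60.4% were higher in cKO mice in place of 51.3%, and 65.1% in CTR mice in place of 49.6%. Of the genes called, 6 were called in both genotypes, 30.0% of the cKO and 85.7% of the CTR list: Kif23, Mcm3, Mcm6, Rrm1, Top2a and Tyms. Ttk was called in CTR mice only and 14 members in cKO mice only. The difference between the genotypes in NP minus AF is the contrast tested above with its sign turned, and no member passed it. Markers of other cells differed between the tissues too. In CTR mice 9 of 11 growth plate cartilage, 8 of 9 osteoblast and 7 of 9 endothelial genes were called lower in the NP. None of these was called higher. The part of such cells in the NP minus AF differences was not tested.

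Top2a was lower in the NP in every array. It had 5.68, 5.70, 5.80 and 5.61 in NP cKO, against 7.57, 7.96, 8.07 and 6.94 in AF cKO, and 5.56, 5.67, 5.66 and 5.46 in NP CTR, against 7.64, 6.38, 6.71 and 7.20 in AF CTR. All 8 NP values lay below the lowest negative control median, 6.14. They also lay below all 8 AF values, as for 4 of 37 members and 5.71% of all probe sets. NP minus AF was -1.94 (SE 0.26, adjusted p = 4.53e-05 in limma) in cKO and -1.39 (SE 0.26, adjusted p = 0.000895) in CTR mice. It kept its call in every alternative tried, in both genotypes.

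Tyms, thymidylate synthase, had 7.35, 6.45, 7.0 and 7.65 in NP cKO against 8.40, 8.62, 8.95 and 8.46 in AF cKO, and 7.45, 7.37, 6.59 and 7.27 in NP CTR against 8.72, 8.30, 8.36 and 8.22 in AF CTR. The tissues did not overlap in either genotype (cKO lay wholly below in 12.5% and CTR in 11.2% of all probe sets), and it was lower by 1.49 (SE 0.25, adjusted p = 0.000392) in cKO and by 1.23 (SE 0.25, adjusted p = 0.00192) in CTR mice. Kif23, a kinesin needed for the last step of cell division, had 6.11, 6.89, 6.23 and 5.74 in NP cKO against 7.52, 8.37, 8.23 and 7.07 in AF cKO, and 6.04, 5.96, 5.97 and 5.46 in NP CTR against 8.01, 7.03, 7.12 and 7.11 in AF CTR. Its 8 NP values were again below all 8 AF values (5.71% of all probe sets). It was lower by 1.56 (SE 0.31) in cKO and 1.46 (SE 0.31) in CTR mice. Mcm6 was lower in the NP by 1.64 (SE 0.48, adjusted p = 0.0168) in cKO and 1.86 (SE 0.48, adjusted p = 0.00947) in CTR mice, and its NP values were 7.19, 8.52, 6.24 and 7.64 in cKO and 6.62, 7.28, 7.49 and 6.68 in CTR mice. Mcm3 was lower by 0.93 (SE 0.32) and 0.94 (SE 0.32), with adjusted p of 0.0405 and 0.046. Ttk, the spindle checkpoint kinase Mps1, was lower in the NP of CTR mice by 1.09 (SE 0.35, adjusted p = 0.0354), at signals of 3.96 to 4.16 in NP CTR and 3.94 to 6.01 in AF CTR, under the negative controls.

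Rrm1 went the other way and was bright in all arrays. It had 11.94, 12.80, 12.17 and 12.00 in NP cKO against 11.10, 11.85, 11.51 and 11.44 in AF cKO, and 12.05, 11.76, 12.62 and 11.74 in NP CTR against 11.13, 10.91, 11.13 and 11.20 in AF CTR. It was higher in the NP by 0.75 (SE 0.24, adjusted p = 0.0261) in cKO and 0.95 (SE 0.24, adjusted p = 0.00813) in CTR mice, without overlap (14.3% of all probe sets lay wholly above in cKO and 11.3% in CTR mice). Its partner Rrm2 was lower in the NP by 0.71 (SE 0.50) in cKO and 0.23 (SE 0.50) in CTR mice, and did not pass. Pcna was lower by 0.81 (SE 0.30, adjusted p = 0.0573) and 0.48 (SE 0.30, adjusted p = 0.291).

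The other 14 members called in cKO mice lie in 6 of the 8 role groups, and all were lower in the NP. Mki67 was lower by 3.30 (SE 0.70, adjusted p = 0.00225), 9.84-fold, while in CTR mice it was lower by 1.91 (SE 0.70, adjusted p = 0.06) although its 4 NP CTR values lay below all 4 AF CTR values. Plk1 was lower by 1.95 (SE 0.42, adjusted p = 0.00258) in cKO mice and by 0.41 (SE 0.42, adjusted p = 0.539) in CTR mice. Ube2c was lower by 2.02 (SE 0.62, adjusted p = 0.0224) and 0.12 (SE 0.62, adjusted p = 0.914). For Bub1 the differences were -1.53 and -0.70, for Bub1b -1.80 and 0.03, for Kif11 -1.62 and -0.46, for Kif20a -1.46 and -0.39, for Tpx2 -1.37 and -0.53, and for Nusap1 -1.33 and -0.61, in cKO and CTR mice. For Cdk1 they were -1.04 and -0.40, for Cdca8 -0.81 and -0.58, for Prc1 -0.77 and -0.22, for Ccne1 -0.79 and -0.46, and for Mybl2 -0.96 and -0.40. The members that passed in neither genotype included Birc5 (-0.32 and -0.21), Mcm2 (-0.91 and -0.50), Mcm5 (-0.29 and -0.29) and E2f1 (-0.48 and -0.01).

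Most of the calls in cKO mice were lost when a marrow measure entered the fit, and the part of marrow cells in them was not tested. Calls over all 22206 probe sets also fell under both covariates, from 5754 to 1651 with the erythroid mean, and were 4074 without AF cKO 3. The loss was therefore not confined to the members. With the Mpo and Elane mean as a covariate 4 of the 20 calls were kept, Kif23, Mki67, Top2a and Tyms, and with the erythroid mean 1 was kept, Top2a, while all 7 calls in CTR mice were kept under both covariates. Mpo and Elane differed by only -0.465 and -0.526 (NP minus AF) in CTR mice, against -3.74 and -2.97 in cKO mice. Their mean could therefore shift the CTR calls little, and keeping them decides nothing about other cells. In cKO mice without AF cKO 3, 8 calls were left, Bub1, Kif23, Mcm6, Mki67, Plk1, Top2a, Tpx2 and Tyms, and 27 were made without AF cKO 4. The count was 11 without AF cKO 2 or without NP cKO 3, and 13 without NP cKO 1 or without NP cKO 4. In CTR mice it lay between 5 and 8 whichever array was left out.

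**Figure D5:**
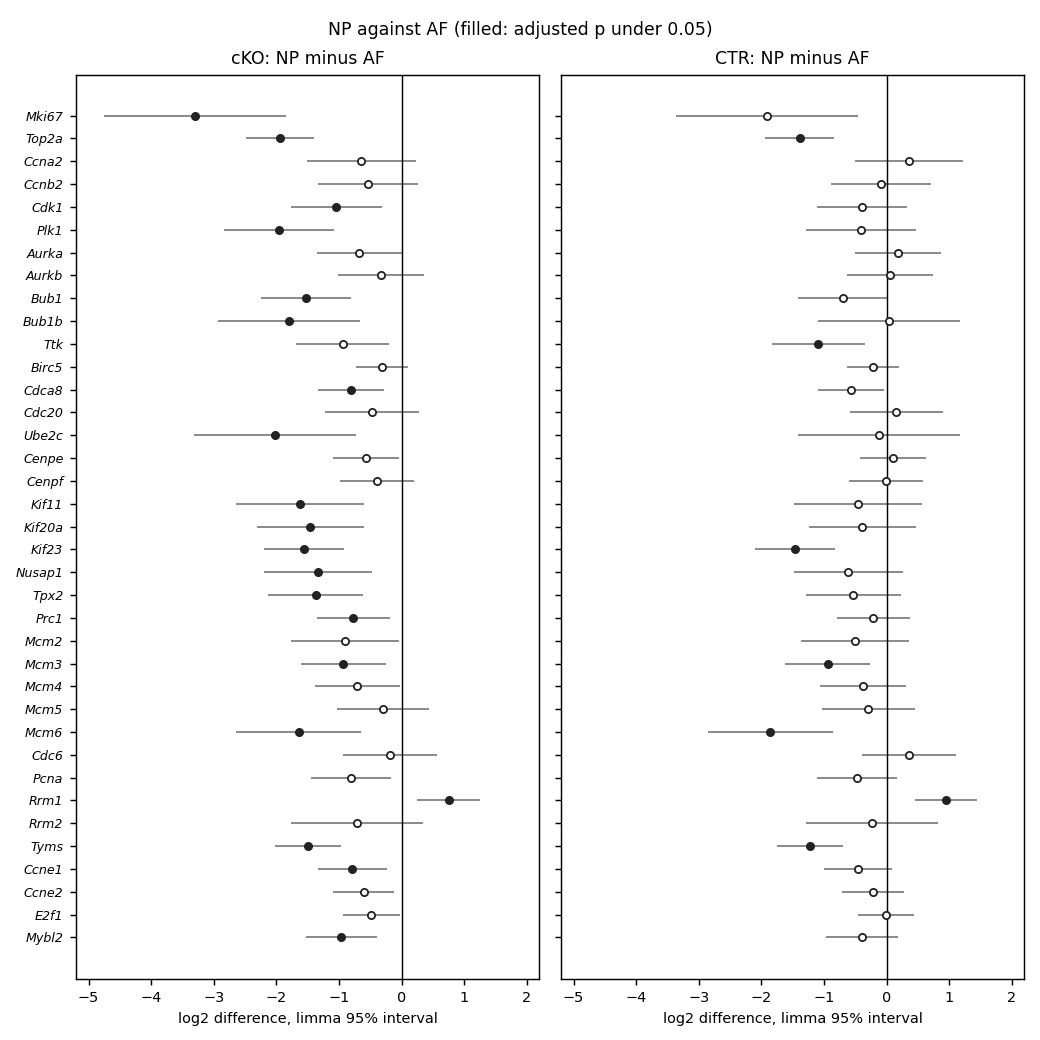
NP minus AF difference of each member on the log2 scale with its 95% interval from limma, in cKO mice (left) and in CTR mice (right), with filled points at an adjusted p under 0.05. Left of 0, 19 points are filled in cKO and 6 in CTR mice, and Rrm1 is the only filled point right of 0 in both.

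Further genes of the cycle, taken from 3 lists of 152 genes with 143 measured, were placed beside the members. Of 60 other mitosis genes, 52 were higher in AF cKO than in AF CTR (46.4% of all probe sets were), with a median of 0.33. Of these, 11 had an unadjusted p under 0.05 (4.94% of all probe sets were higher at that p) and none passed. Those with the smallest p were Kif2c, a microtubule-depolymerising kinesin, at 1.15 (SE 0.31, adjusted p = 0.197), and the condensin genes Smc4 and Ncaph, at 0.76 (SE 0.23) and 0.85 (SE 0.31). In the NP, 42 of the 60 were higher (50.0% of all probe sets were) with a median of 0.14, and none had an unadjusted p under 0.05. Of 55 other replication genes, 40 were higher in AF cKO with a median of 0.15, led by E2f2, Dtl and Rfc4. In NP cKO 22 of the 55 were higher, with a median of -0.07, not far from the 50.0% of all probe sets. Orc6, an origin recognition subunit, was lower in the NP of cKO mice, at 9.45, 8.88, 9.83 and 9.29 in cKO and 10.37, 10.26, 11.10 and 10.10 in CTR, by 1.10 (SE 0.31, adjusted p = 0.431).

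Of 28 G1 cyclins, inhibitors and quiescence genes, 20 were lower in NP cKO than in NP CTR with a median of -0.09, where 50.0% of all probe sets were higher. In the AF 19 were higher in cKO than in CTR (46.4% of all probe sets were) with a median of 0.35, and none passed in either tissue. Gas1, a membrane protein found for its induction in growth-arrested cells, had 11.20, 13.47, 11.88 and 12.35 in NP cKO and 8.93, 9.94, 10.18 and 10.25 in NP CTR. The groups did not overlap (cKO lay wholly above CTR in 1.11% of all probe sets), and its difference of 2.40 (SE 0.48) just missed the threshold (adjusted p = 0.0613). Cdkn1a, which encodes the CDK inhibitor p21, had 10.41, 12.74, 11.40 and 10.61 in NP cKO and 10.15, 9.62, 11.04 and 10.27 in NP CTR, a difference of 1.02 (SE 0.44, adjusted p = 1.0) with its highest value in NP cKO 2. In the AF the smallest p were those of Ccnd3 at 0.60, Cdkn2d at 0.74 and Cdk2 at 1.06.

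Between tissues, genes of the same list were called in both directions. Ccnd2 had 8.11, 7.34, 7.90 and 8.69 in NP cKO against 9.94, 10.58, 11.19 and 9.80 in AF cKO, and was lower in the NP by 2.37 (SE 0.36, adjusted p = 0.000159) in cKO and by 2.09 (SE 0.36, adjusted p = 0.000461) in CTR mice. Ccnd3 was higher in the NP by 1.28 (SE 0.23, adjusted p = 0.000611) in CTR mice, with 14.52, 14.20, 15.03 and 14.19 in NP CTR against 12.93, 13.66, 13.13 and 13.11 in AF CTR. In cKO mice Ccnd3 was higher in the NP by 0.26 (SE 0.23, adjusted p = 0.422) and the groups overlapped. Ccng2, an atypical cyclin linked to cell cycle exit, was higher in the NP of CTR mice by 1.05 (SE 0.27, adjusted p = 0.0104). Of the 60 other mitosis genes 13 were called lower and none higher in NP cKO against AF cKO, and 5 lower and 2 higher in NP CTR against AF CTR. Of the 55 other replication genes 13 were lower and 1 higher in cKO, and 9 lower and 2 higher in CTR mice. Over all probe sets 12.6% were called lower and 13.3% higher in cKO mice, and 10.1% lower and 9.96% higher in CTR mice.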

How the data were processed

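Per the labels, total RNA was purified with RNeasy columns and hybridised after GeneChip WT Plus labelling, 1 array per tissue and animal. The deposited values are log2 signals that the authors normalised by sst-RMA, using the Transcriptome Analysis Console per the submitters' processing notes (version not given in the sources used here). Of 28846 probe sets in the table, 6640 controls were set aside, leaving 22206 tested, 19572 with 1 symbol and 2634 with none. Values run from 2.57 to 19.93, arrays of a group correlated at 0.963 to 0.983, 0 pairs of arrays were identical, and the number of arrays limits the precision.

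Each member is represented by its probe set of highest mean over the 16 arrays. The members and all lists were chosen with earlier results of these data known. Limma 3.58.1 in R 4.3.3 was fitted on 4 group means over all 16 arrays, with Benjamini-Hochberg adjustment over 22206 probe sets, and every adjusted p of the text is from it, apart from those of correlations, which rest on exact permutation tests. The code was tested on simulated data. Named in each comparison are a set of members (Mki67, Top2a, Cdk1, Plk1, Birc5, Mcm2, Mcm5, Pcna, Rrm2, Ccne1 and E2f1), each member past an adjusted p of 0.05, and the member of smallest p in each role group. Other members are given for context. Of each further list, genes past the threshold or the 3 of smallest p were eligible. The fit was repeated with arrays centred on their medians or quantile normalised again, with array weights or an intensity trend in the variance, without dim or duplicate probe sets, and with the labels' thresholds (p under 0.05, fold of 1.75). It was also repeated in the 8 arrays of a comparison, with replicate blocks, with marrow or erythroid covariates, and with arrays left out. NP and AF arrays with the same genotype and number come from 1 animal, so they are paired by origin. Deviations from the group means correlated at -0.293 to 0.348 within animals, over 0.1 in 3 of 8, and at -0.275 to 0.208 between same-numbered cKO and CTR arrays, over 0.1 in 4 of 8. By that count the known pairs scored no higher, so this check cannot decide whether the number pairs the genotypes.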

Additional observations from a re-analysis of the deposited data

Results flagged for a closer look

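In 10 of 156 sets of 4 arrays (39 genes in 4 groups) 1 array lay far from the other 3 by Dixon's test at the 95% level, where chance alone gives about 7.8. In NP cKO, replicate 2 was high for Cdca8, at 6.68 against 6.15 to 6.19 in the others, and for Ube2c, at 6.99 against 4.87 to 5.08. In NP CTR, replicate 4 was low for Kif23, at 5.46 against 5.96 to 6.04, and replicate 3 was high for Nusap1, at 7.45 against 6.67 to 6.70, and low for Mybl2, at 5.49 against 6.04 to 6.08. In AF cKO, replicate 3 was high for Pcna, at 14.71 against 13.31 to 13.47. In AF CTR, replicate 1 was low for Cdca8, at 6.01 against 6.93 to 7.05, and high for Kif23, at 8.01 against 7.03 to 7.12, and for Elane, at 10.09 against 5.60 to 5.96. Replicate 4 of AF CTR was low for Ccne2, at 6.48 against 7.14 to 7.22. AF CTR 1, with 3 of the 10, also had the highest Mpo of the AF controls.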

How the results depend on the processing

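The labels' thresholds (unadjusted p under 0.05, fold of 1.75) gave 262 probe sets in place of 27 for cKO against CTR in the NP, 774 in place of 22 in the AF with 12 members, and 977 in place of 0 for the difference between the tissues with 3 members. For the AF, the count was 37 after a second quantile normalization, 8 with the 8 AF arrays alone, with or without the Mpo and Elane covariate, 68 with that covariate, 73 with the erythroid one, 132 without NP cKO 4 and AF CTR 1, and 112 without AF cKO 3 and AF CTR 1, a setting chosen after seeing the data, as was the covariate in 8 arrays. The median AF difference of the members was 0.193 with the Mpo and Elane covariate, 0.192 with it in the 8 arrays, and 0.06 with the erythroid one. The difference between tissues had 1 probe set under the second quantile normalization, under either covariate and without either pair of arrays, and its members' median was 0.061 with the Mpo and Elane covariate and -0.095 with the erythroid one. For NP minus AF, a filter on dim probe sets gave 3119 probe sets and 10 members in cKO mice, and 2764 and 4 in CTR mice, from fewer tested. In cKO mice the Mpo and Elane covariate gave 2256 probe sets and 4 members with a median of -0.349, the erythroid one 1651 and 1 with -0.218, and leaving out AF cKO 3 and AF CTR 1 gave 11 members. Under the erythroid covariate Bub1b and Mcm3 turned to 0.048 and 0.026 in cKO mice. The cause of these shifts was not tested.

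Leaving out 1 array gave 10 to 31 probe sets for the NP, 12 to 142 for the AF, 0 to 3 for the difference, 4074 to 5939 for NP minus AF in cKO and 3552 to 4562 in CTR mice. Members called were 0 in the NP, 0 to 2 in the AF, 8 to 27 in cKO and 5 to 8 in CTR mice, and the members' median lay between -0.021 and 0.194 in the NP and between 0.437 and 0.828 in the AF. With the animal as a replicate block, fixed or random, members called were 19 and 20 in cKO and 7 and 7 in CTR mice, and the block moved no count of calls by over 1.5 times. Signals near the negative controls limit what can be seen for many members.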
